A study of Rattus norvegicus with 16 samples.

Results

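The circadian clock genes followed here are the transcription factors Arntl, Clock and Npas2, the cryptochromes Cry1 and Cry2, the nuclear receptors Rora and Rorb, the repressors Bhlhe40 and Bhlhe41, and the kinase Csnk1e. The members were chosen by name: a row belonged to the set when its gene symbol was one of these 10, and a gene with several rows was represented by its most abundant one. Of the 10 symbols, 9 had a row in each of the deposited tables, which hold 16713 different symbols for the hippocampus and 16702 for blood. Bhlhe41 had no row under that symbol in either table and is not analysed here. Male Sprague Dawley rats received a traumatic brain injury (TBI) by fluid percussion, a pulse of fluid pressure on the brain, or sham surgery, and tissue was taken 1 week later, after a test of learning. Poly-A RNA was sequenced from 4 CA1 TBI, 4 CA1 sham, 4 WBC TBI and 4 WBC sham libraries, where CA1 is a field of the hippocampus and WBC are white blood cells. All rats were kept on a light/dark cycle of 12 h, no genetic change or drug is named for any group, their age is not given, and the sources used here do not give the hour at which each rat was killed. The design compares injured with sham rats within each tissue. The labels do not say whether the libraries of a group come from separate rats or whether equal numbers mark the same rat, so a p-value here reflects how these libraries vary, which may be partly technical.

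The clock is a feedback loop of transcription. Arntl (also called Bmal1) pairs with Clock, or with the closely related Npas2, and the pair binds E-boxes in DNA and switches on the period and cryptochrome genes, whose proteins then block the pair. Csnk1e phosphorylates period proteins and so sets the pace of the loop. In a second loop ROR receptors switch Arntl on and the REV-ERB receptors Nr1d1 and Nr1d2 switch it off through the same DNA element, while Bhlhe40 competes with Arntl and Clock for E-boxes. Nearly every cell runs such a loop. Npas2 is known as the form of the Clock partner that is abundant in the forebrain, and Rorb is known from retina and brain.

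The upstream sequences of Arntl and Bhlhe40 are shown because each holds the element through which the other arm of the loop is known to act on it. They are the 250 bases before the gene's start, read on the gene's own strand, from RefSeq on build GRCr8, which is not the build of the expression files. Arntl lies on chromosome 1, chr1:176766078-176766327 (+ strand), and capitals mark TAGGTCA, the half-site that ROR and REV-ERB receptors bind. Bhlhe40 lies on chromosome 4, chr4:143174200-143174449 (+ strand), and capitals mark the E-box CACGTG.
Arntl: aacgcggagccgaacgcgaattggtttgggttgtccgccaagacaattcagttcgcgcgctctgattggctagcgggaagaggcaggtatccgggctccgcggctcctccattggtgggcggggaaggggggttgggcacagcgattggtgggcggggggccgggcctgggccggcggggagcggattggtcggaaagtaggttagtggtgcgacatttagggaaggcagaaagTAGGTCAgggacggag
Bhlhe40: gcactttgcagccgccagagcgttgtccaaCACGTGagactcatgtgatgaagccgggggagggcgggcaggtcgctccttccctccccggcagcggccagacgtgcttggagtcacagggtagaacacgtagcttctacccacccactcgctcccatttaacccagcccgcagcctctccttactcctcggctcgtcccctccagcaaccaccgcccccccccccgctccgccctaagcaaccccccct

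The half-site of Arntl covers the bases 16 to 10 before its start, and the E-box of Bhlhe40 the bases 220 to 215 before its start. On both strands, TAGGTCA was found in 2.26% of all 33469 upstream windows of the same length, the shorter AGGTCA that it contains in 14.1%, and CACGTG in 5.59%. Of the 9 members with such a window, Bhlhe41 also held an E-box, and the other 6 (Clock, Npas2, Cry2, Rora, Rorb and Csnk1e) held neither element in these letters. A match describes the sequence and does not show a bound site.

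Expression is given as FPKM, which divides fragments by transcript length and library size, so levels of different genes can be set side by side within a table, and the number of fragments behind a value is unknown. The sum of FPKM per library ran from 1726840 to 3520670 in CA1 and from 482286 to 832725 in WBC, with 69.0 to 82.8% and 18.6 to 35.8% of it in the 10 highest rows. Median-ratio size factors, which compare the bulk of the genes, were 0.981 to 1.02 in CA1 and 0.997 to 1.02 in WBC. Pairs of CA1 libraries correlated across rows with r of 0.967 to 0.981 in log2 values, and pairs of WBC libraries with r of 0.910 to 0.968. Markers chosen for pyramidal neurons summed to 3643 to 4094 FPKM in CA1 TBI and 3905 to 4723 in CA1 sham libraries (Fibcd1, a CA1 marker, was listed at 0 in all 8), and T cell markers summed to 937 to 1423 FPKM in WBC TBI and 936 to 1258 in WBC sham libraries (Il7r at 0 in all 8). Choroid plexus markers summed to 238 to 2879 FPKM in CA1 TBI and 79.1 to 1449 in CA1 sham libraries (Otx2 at 0 in all 8). Among them Ttr had 3.42 FPKM in CA1 sham 1 and 2694 in CA1 TBI 1. The part of this spread in the CA1 differences was not tested. Summed red cell and platelet transcripts were lower in injured WBC: 18 erythroid markers, 17 of them with a row, summed to 5987 to 14170 FPKM in WBC TBI and 14418 to 22907 in WBC sham libraries, and 15 platelet markers, 10 with a row, to 2833 to 8164 FPKM in WBC TBI and 8693 to 11835 in WBC sham libraries, so that neither sum overlapped between the groups. No erythroid or platelet marker with a row was at 0 in every WBC library. In tissue and blood alike, fewer cells of a type and less RNA per cell cannot be told apart.

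In CA1, Cry2 was highest, at 30.2 ± 1.68 FPKM (SD over the 8 CA1 libraries), followed by Csnk1e at 26.1 ± 1.25 and Bhlhe40 at 25.0 ± 2.84. Npas2 (10.6 ± 1.58) and Arntl (9.81 ± 1.16) stood close together, with Npas2 the higher in 6 of 8 libraries. Below them came Rorb (5.92 ± 1.09), Cry1 (4.05 ± 0.473), Clock (3.21 ± 0.638) and Rora (3.12 ± 0.755). The ranges of Csnk1e and Bhlhe40, of Npas2 and Arntl, of Rorb and Cry1, of Cry1 and Clock and of Clock and Rora overlapped, so these neighbours do not differ beyond their spread over libraries, although within each library Rorb was higher than Cry1 in 8 of 8. Npas2 exceeded Clock, its paralog, in every CA1 library, with a log2 ratio of Clock to Npas2 between -1.98 and -1.19.

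In blood the order was another one, with the caution that the tables of the tissues were made separately and their levels are set side by side without a test. Csnk1e led at 36.7 ± 4.05 FPKM (SD over the 8 WBC libraries), above every other member in every library. Cry2 (11.6 ± 3.42), Cry1 (7.99 ± 0.886), Bhlhe40 (7.47 ± 2.02), Arntl (6.74 ± 1.01) and the row named Rorb (6.01 ± 1.21) formed a middle group in which each overlapped the next. Clock followed at 1.12 ± 0.268 and Rora at 0.430 ± 0.182 FPKM. Npas2 was listed at 0, 0.0616, 0.0173 and 0.0302 FPKM in WBC TBI 1 to 4 and at 0, 0, 0.0406 and 0.0923 in WBC sham 1 to 4. Of the partners of Arntl, Npas2 had the higher level in CA1 and Clock the higher level in WBC.

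A pair of symbols had more than 1 row, and this bears on what the Rorb values mean. In the WBC table a Rorb row stood next to Ostf1, which RefSeq places near Rorb on the same strand, as the only Rorb row of the CA1 table does, and it was listed at 0 in all 8 WBC libraries. The WBC row with the highest mean, which by the rule stands for Rorb, lay instead among rows such as Nmrk1 that RefSeq places near Rorb on the other strand, and the Rorb values of the tissues therefore come from different loci. In the CA1 table a second Npas2 row likewise lay beside Chst10 and Tbc1d8, of the other strand, but also beside Cnot11, which lies on the strand of Npas2 and near the row used, so its place is less clear. That row read 2.04, 4.47, 6.08 and 3.33 FPKM in CA1 TBI 1 to 4 and 3.46, 1.15, 1.66 and 1.71 in CA1 sham 1 to 4, 0.84 ± 0.34 (SE) higher in TBI on the log2 scale (limma adjusted p = 0.891). The preparation described in the labels names no step that keeps strand, so fragments of a gene and of a transcript opposite to it cannot be told apart.

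**Figure D1:**
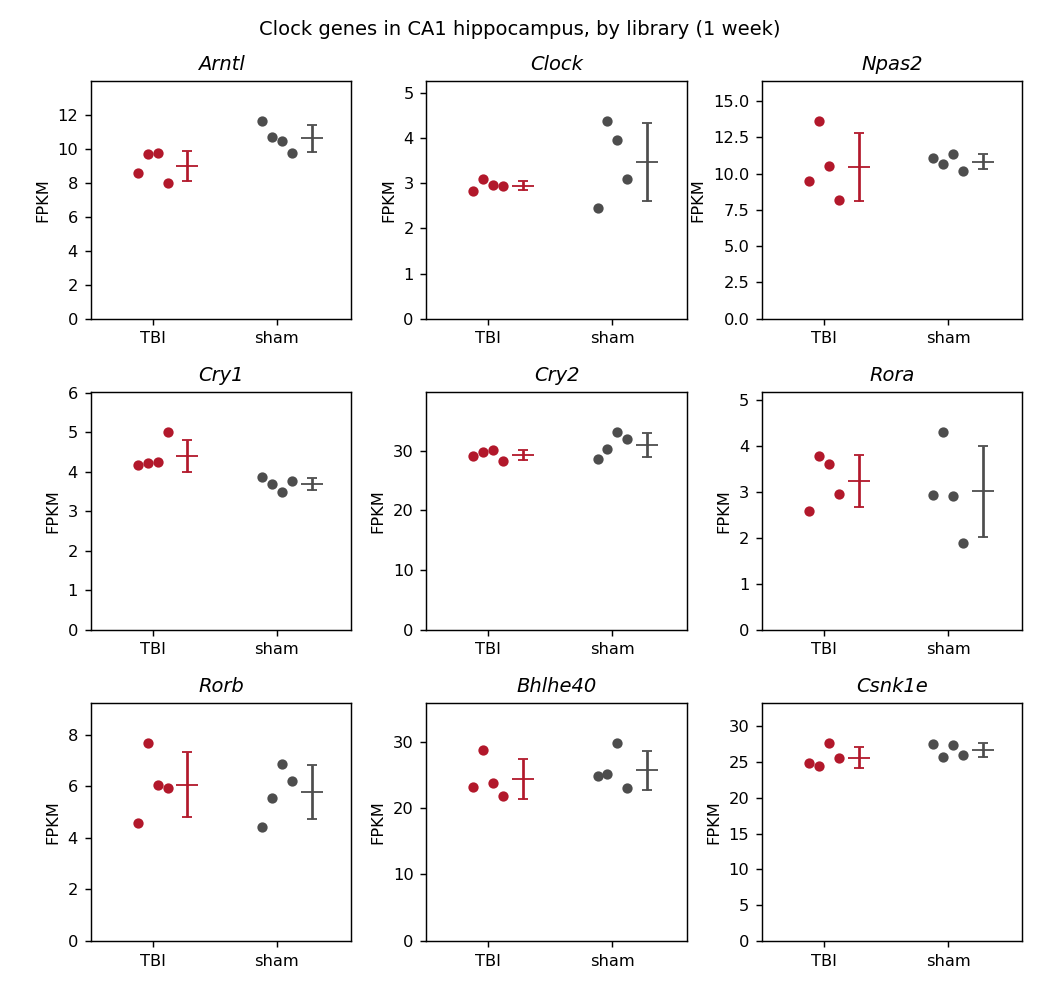
FPKM of the 9 measured clock genes in the CA1 libraries, TBI left and sham right in each panel, 1 point per library with the mean and SD beside the points (n = 4 per group). Cry1 is the only panel in which the TBI points (4.17 to 5.01) all lie above the sham points (3.50 to 3.86).

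CA1, TBI against sham. All 9 measured members passed the filter of a mean of at least 1 FPKM, and none passed limma's test at an adjusted p under 0.05 (adjusted p = 0.891 to 0.961), where 0.00683% of the 14637 CA1 rows passed. At an unadjusted p under 0.05 there were 2 of 9, Cry1 and Arntl, against 5.14% of all rows. The 752 rows behind that share became 1802 without sham 1 and 2022 with sample weights. Differences ran from -0.23 to 0.22 on the log2 scale, 3 above and 6 below 0 with a median of -0.07, while 46.7% of all rows lay above 0 and their median was -0.01.

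Arntl, the activator that every pair in the loop contains, had 8.57, 9.67, 9.75 and 7.98 FPKM in CA1 TBI 1 to 4, against 11.7, 10.7, 10.4 and 9.73 FPKM in CA1 sham 1 to 4. All TBI libraries lay below the sham mean, and the groups touched through sham 4, which was just below TBI 3. The log2 difference was -0.23 ± 0.08 (SE, limma adjusted p = 0.891). The unadjusted p was above 0.05 without sham 1 (-0.19), TBI 1 (-0.21) or TBI 4 (-0.18). In the same libraries all 12 endothelial and pericyte markers had lower means in TBI, 4 of them at an unadjusted p under 0.05 (2.6% of all CA1 rows), with sums of 189 to 205 FPKM in CA1 TBI and 191 to 263 in CA1 sham libraries, and none was at 0 in every library. Of the 10 pyramidal neuron markers tested, 9 were lower, 1 of them at an unadjusted p under 0.05. Other lists leaned higher: 8 of 10 choroid plexus, 7 of 12 microglia and 6 of 9 GABAergic interneuron markers tested. Oligodendrocyte markers split 6 and 6, astrocyte markers 5 higher and 6 lower, and dentate and CA3 markers 2 higher and 5 lower. The part of any of these cell types in the Arntl difference in CA1 was not tested.

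The partners of Arntl varied more. Clock had 2.82, 3.09, 2.96 and 2.94 FPKM in CA1 TBI 1 to 4 and 2.44, 4.39, 3.95 and 3.09 in CA1 sham 1 to 4. The TBI values were close together inside the wide sham range, with a log2 difference of -0.18 ± 0.15 (SE, limma adjusted p = 0.891), which was -0.31 without sham 1 and -0.07 without sham 2. Npas2 had 9.47, 13.7, 10.5 and 8.17 FPKM in CA1 TBI 1 to 4 and 11.1, 10.7, 11.4 and 10.2 in CA1 sham 1 to 4. Here TBI 1 and TBI 4 lay below the narrow sham range, TBI 2 above it and TBI 3 inside it (-0.07 ± 0.14 SE, limma adjusted p = 0.943).

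The cryptochromes, the repressors that close the loop, pointed in opposite directions. Cry1 had 4.17, 4.21, 4.24 and 5.01 FPKM in CA1 TBI 1 to 4, against 3.86, 3.68, 3.50 and 3.76 FPKM in CA1 sham 1 to 4. It was the only member whose CA1 groups did not overlap, as 2.88% of all CA1 rows did not, and its log2 difference was 0.22 ± 0.08 (SE, limma adjusted p = 0.891). Without TBI 4 the difference was 0.16, and without sham 3, 0.20 with an unadjusted p of 0.0515. Cry2 had 29.1, 29.7, 30.1 and 28.3 FPKM in CA1 TBI 1 to 4 and 28.6, 30.2, 33.2 and 32.0 in CA1 sham 1 to 4, overlapping groups with a log2 difference of -0.08 ± 0.06 (SE, limma adjusted p = 0.891).

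The ratio of paralogs inside a library hardly depends on how the library was scaled. The log2 ratio of Cry1 to Cry2 was -2.66, -2.68, -2.69 and -2.39 in CA1 TBI 1 to 4, against -2.74, -2.88, -3.08 and -2.93 in CA1 sham 1 to 4, so Cry1 took a larger share of the cryptochrome transcripts in every TBI library than in any sham library. The difference was 0.30 ± 0.10 (SE, n = 4 per group). An exact 2-sided permutation test gave p = 0.0286, the smallest it can give with these groups, and adjusted p = 0.171 over the 6 ratios tested in the tissues together. That smallest p restates that the groups do not overlap. How many pairs of all genes separate in this way was not counted. The ratio shares its Cry1 values with the comparison above, where 2.88% of all CA1 rows did not overlap, so it is no separate support. The other CA1 ratios differed by less than their spread: Clock to Npas2 by -0.11 ± 0.21 (SE), Rora to Rorb by 0.06 ± 0.27 and Arntl to Clock by -0.06 ± 0.20 (exact permutation, adjusted p = 0.857 for all 3). Each of these last differences changed sign when some single library was left out.

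**Figure D2:**
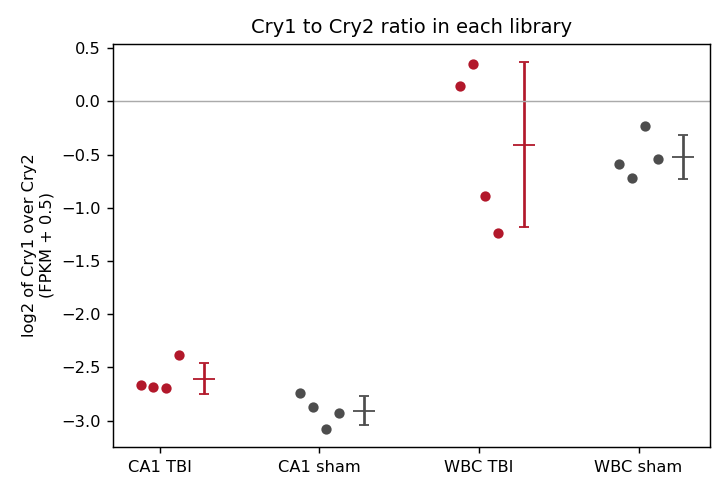
Log2 of Cry1 over Cry2 (each FPKM + 0.5) in each library of the 4 groups, with the mean and SD beside the points (n = 4 per group). The CA1 TBI points (-2.69 to -2.39) lie above all CA1 sham points (-3.08 to -2.74), while the WBC TBI points lie on both sides of the WBC sham points.

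Among the receptors, which feed back on Arntl, the groups overlapped. Rora had 2.58, 3.78, 3.62 and 2.96 FPKM in CA1 TBI 1 to 4 and 2.92, 4.31, 2.91 and 1.89 in CA1 sham 1 to 4 (log2 difference 0.12 ± 0.21 SE, limma adjusted p = 0.935). Rorb had 4.60, 7.69, 6.04 and 5.94 FPKM in CA1 TBI 1 to 4 and 4.41, 5.56, 6.87 and 6.22 in CA1 sham 1 to 4 (0.06 ± 0.17 SE, limma adjusted p = 0.961). Their levels differed more between libraries of a group than between the groups. The repressor Bhlhe40 had 23.1, 28.7, 23.8 and 21.8 FPKM in CA1 TBI 1 to 4 and 24.8, 25.1, 29.8 and 23.0 in CA1 sham 1 to 4, with 1 high library in each group (-0.08 ± 0.10 SE, limma adjusted p = 0.924). Its difference was -0.16 without TBI 2 and -0.0024 without sham 3. The kinase Csnk1e varied little, at 24.8, 24.5, 27.7 and 25.5 FPKM in CA1 TBI 1 to 4 and 27.6, 25.6, 27.3 and 26.0 in CA1 sham 1 to 4 (-0.06 ± 0.06 SE, limma adjusted p = 0.899).

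**Figure D3:**
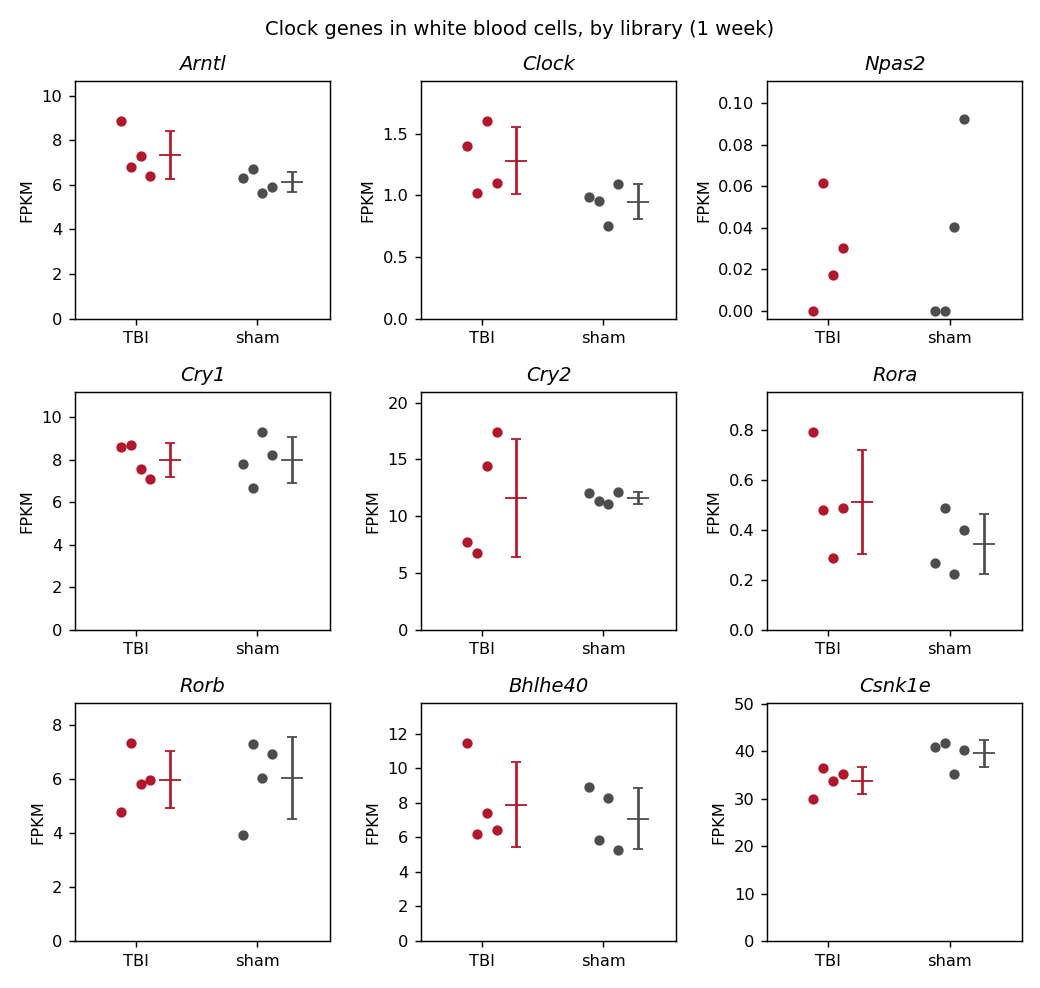
FPKM of the 9 clock genes with a row in the WBC libraries, TBI left and sham right in each panel, 1 point per library with the mean and SD beside the points (n = 4 per group; no mean for Npas2, listed at 0 in 3 libraries). The Rorb panel shows the row that stands for Rorb, from another locus than the Rorb row of CA1. The TBI points of Cry2 lie above (14.4 and 17.4) and below (6.74 and 7.70) the narrow sham group, and no panel separates the groups.

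WBC, TBI against sham. Of the 9 members with a row, 7 reached a mean of 1 FPKM, and Clock did so only through its TBI libraries (mean 1.28, against 0.950 in sham), so its place in the counts depends on its difference. None passed limma's test at an adjusted p under 0.05 (adjusted p = 0.208 to 0.992), as 0% of the 13413 WBC rows did. At an unadjusted p under 0.05 there was 1 of 7, Csnk1e, where 20.3% of all rows had such a p, so the members stood out from the table in no way that these counts show. The members tested ran from -0.22 to 0.29 on the log2 scale, 5 above 0 and 2 below (49.6% of all rows lay above 0). Their median was 0.0044, against -0.0031 for all rows. Of those above 0, Cry1 (0.0036) and the row named Rorb (0.0044) lay nearly at 0, so the split shows no lean. In none did the groups separate, as they did in 14.2% of all rows.

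Arntl had 8.88, 6.78, 7.32 and 6.41 FPKM in WBC TBI 1 to 4, against 6.29, 6.69, 5.63 and 5.92 FPKM in WBC sham 1 to 4. All TBI libraries lay above the sham mean, TBI 1 the farthest, and only TBI 4 fell inside the sham range. The log2 difference was 0.24 ± 0.11 (SE, limma adjusted p = 0.276), and 0.15 without TBI 1. Of the NK and cytotoxic cell markers 8 of 9 tested were also higher in TBI, 5 of them at an unadjusted p under 0.05 (7.82% of all WBC rows), with sums of 570 to 1076 FPKM in WBC TBI and 564 to 810 in WBC sham libraries, none at 0 in every library. Some other marker lists also leaned to one side in these libraries, where 49.6% of all WBC rows lay above 0. Of the markers tested, 10 of 11 for T cells were higher in TBI. All 9 for B cells, 7 of 9 for neutrophils and all 16 for erythroid cells were lower. None of the T cell, B cell or neutrophil markers had an unadjusted p under 0.05, whereas 20.3% of all WBC rows did. Of the erythroid markers 14 were lower at such a p, as 12.5% of all WBC rows were. The part of any of these cell types in the Arntl difference was not tested. Clock had 1.40, 1.02, 1.61 and 1.10 FPKM in WBC TBI 1 to 4 and 0.990, 0.958, 0.755 and 1.10 in WBC sham 1 to 4, again with every TBI library above the sham mean (0.29 ± 0.17 SE, limma adjusted p = 0.375). These levels lie near the filter, where the pseudocount shrinks the difference. The log2 ratio of Arntl to Clock averaged 2.14 ± 0.186 in WBC TBI and 2.20 ± 0.136 in WBC sham libraries (SD, n = 4 each), a difference of -0.05 ± 0.12 (SE, exact permutation p = 0.600) that depends on the pseudocount: it was -0.14 with 0.1 and -0.0015 with 1. This ratio was tested only because the TBI libraries lifted the mean of Clock over the filter.

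Cry2 had 7.70, 6.74, 14.4 and 17.4 FPKM in WBC TBI 1 to 4, against 12.0, 11.3, 11.1 and 12.2 FPKM in WBC sham 1 to 4. The group means were nearly equal (11.6 in each) while the SD was 5.19 in TBI and 0.532 in sham libraries: TBI 1 and TBI 2 lay below all sham libraries, and TBI 3 and TBI 4 above them. The log2 difference of -0.11 ± 0.28 (SE, limma adjusted p = 0.865) turned to 0.04 without TBI 1 and 0.10 without TBI 2. Cry1 had 8.59, 8.71, 7.56 and 7.10 FPKM in WBC TBI 1 to 4 and 7.79, 6.66, 9.32 and 8.21 in WBC sham 1 to 4, overlapping fully (0.00 ± 0.12 SE, limma adjusted p = 0.989). Cry1 exceeded Cry2 in TBI 1 and TBI 2 and in no other WBC library, and the ratio differed between the groups by 0.12 ± 0.40 (SE, exact permutation p = 0.771).

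Csnk1e had 29.8, 36.5, 33.8 and 35.2 FPKM in WBC TBI 1 to 4, against 40.9, 41.8, 35.3 and 40.2 FPKM in WBC sham 1 to 4. The TBI libraries were lower but for TBI 2, which exceeded sham 3. The log2 difference was -0.22 ± 0.09 (SE, limma adjusted p = 0.208), and -0.10 after quantile normalization. Its unadjusted p was above 0.05 under that normalization and without any of sham 1, sham 2, sham 4, TBI 1 or TBI 3. The erythroid and platelet sums given above were lower in every WBC TBI library than in any WBC sham library. Neither their part in this difference nor that of the cell types set beside Arntl was tested. Bhlhe40 had 11.5, 6.18, 7.43 and 6.45 FPKM in WBC TBI 1 to 4 and 8.88, 5.85, 8.25 and 5.27 in WBC sham 1 to 4, with TBI 1 above all others (0.14 ± 0.23 SE, limma adjusted p = 0.783, and -0.05 without TBI 1). The row that stands for Rorb had 4.79, 7.35, 5.81 and 5.97 FPKM in WBC TBI 1 to 4 and 3.91, 7.30, 6.03 and 6.95 in WBC sham 1 to 4 (0.00 ± 0.20 SE, limma adjusted p = 0.992). Rora, below the filter and not tested, had 0.795, 0.483, 0.288 and 0.488 FPKM in WBC TBI 1 to 4 and 0.269, 0.488, 0.225 and 0.401 in WBC sham 1 to 4.

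**Figure D4:**
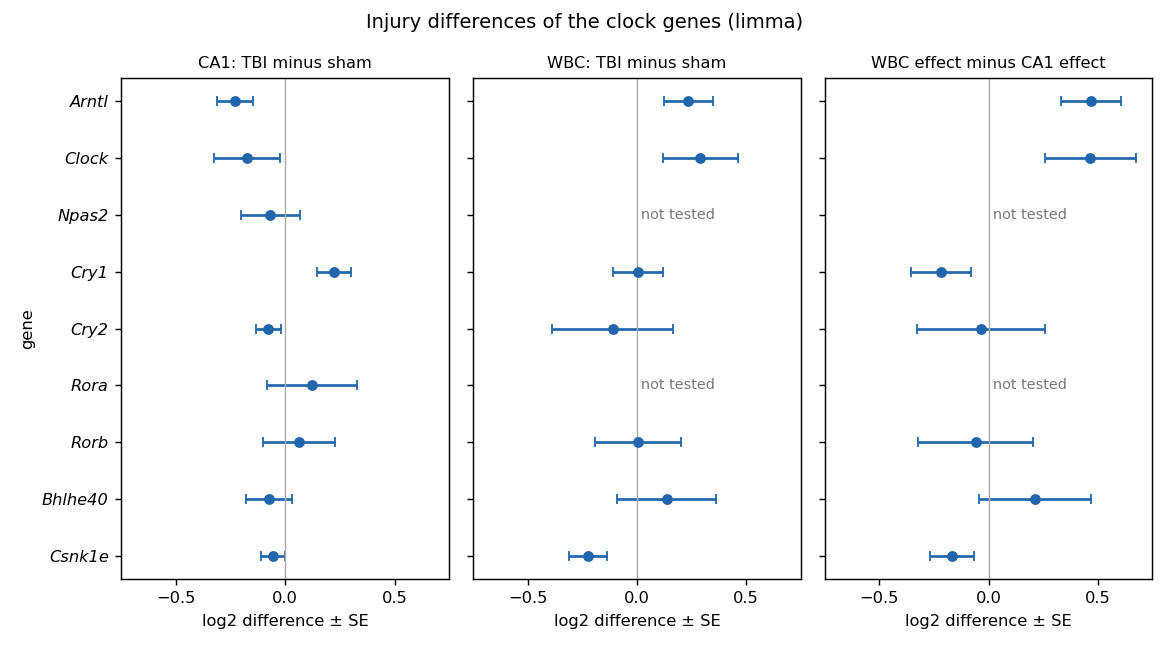
Log2 differences with limma's SE for the clock genes: TBI minus sham in CA1, TBI minus sham in WBC, and the WBC difference minus the CA1 difference. The Rorb rows of CA1 and WBC come from different loci. Arntl lies at -0.23 in CA1, 0.24 in WBC and 0.47 in the last panel, and none of the differences passed an adjusted p under 0.05.

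The injury differences were also compared between the tissues, by the interaction term of a limma model over the 7639 symbols that passed the filters in both tables. No member passed at an adjusted p under 0.05, where 0.419% of the symbols did. The 32 symbols behind that share were 6 without CA1 TBI 4 and 225 without WBC TBI 3. Arntl came nearest: its WBC difference exceeded its CA1 difference by 0.47 ± 0.14 (SE, limma adjusted p = 0.0951). Clock had a like value, 0.47 ± 0.21 (SE, limma adjusted p = 0.224). These were the 2 of 7 members with an unadjusted p under 0.05, against 19.8% of all symbols. Clock entered this model only because its TBI libraries lifted its WBC mean over the filter, so its term and its place in that count depend on the WBC difference itself. Over the alternatives Arntl stayed between 0.38 and 0.52, with adjusted p = 0.0707 to 0.176 in limma. For Cry1 the term was -0.22 ± 0.14 (SE, limma adjusted p = 0.398), for Csnk1e -0.17 ± 0.10 (adjusted p = 0.389), for Bhlhe40 0.21 ± 0.26 (adjusted p = 0.704; 0.028 without WBC TBI 1) and for Cry2 -0.03 ± 0.29 (adjusted p = 0.969). For Rorb the term compares the different loci described above.

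Whether libraries high in Arntl were high or low in other clock genes was asked over the 8 libraries of each tissue, with 13 relations in the family. No relation had an adjusted p under 0.05 by exact permutation. In CA1 Arntl ran opposite to Dbp, an output gene that Arntl and Clock switch on (r = -0.75, exact permutation p = 0.0346, adjusted p = 0.150; Spearman's rho -0.88, exact p = 0.00724, adjusted p = 0.0941). It also ran opposite to Cry1 (r = -0.78, exact permutation p = 0.0231, adjusted p = 0.150; rho -0.64, exact p = 0.0962). As deviations from the group means these became -0.31 and -0.44, so the pooled values rest in part on the difference between TBI and sham libraries. No p is given for such deviations, because the permutation ran over all 8 libraries together and is not exact for them. Without TBI 4 and sham 1, the libraries farthest from the median of Arntl, r was -0.78 for Dbp and -0.69 for Cry1. In WBC Arntl ran with Clock (r = 0.75, exact permutation p = 0.0330, adjusted p = 0.150; rho 0.67, exact p = 0.0831), at 0.55 within the groups and 0.61 without TBI 1 and sham 3. Clock entered this relation only because its TBI libraries, where Arntl was also higher, lifted its WBC mean over the filter. The pooled value therefore depends in part on how Clock was let in. The relation of Arntl to Npas2 in CA1 was r = 0.62 (exact permutation p = 0.0969, adjusted p = 0.315; rho 0.57, exact p = 0.151). Within the groups it was 0.74. Without TBI 4 and sham 1 it was 0.36, so its size rests on those libraries. To Clock in CA1 it was 0.19 (exact permutation p = 0.667, adjusted p = 0.723; rho 0.24, exact p = 0.582), but 0.86 without TBI 4 and sham 1 (exact p = 0.00972) and -0.17 within the groups. The remaining relations, to Cry2, Per2 and Nr1d1 in both tissues and to Cry1 and Dbp in WBC, had r between -0.48 and 0.48 (adjusted p = 0.498 to 0.897 by exact permutation), rho between -0.52 and 0.55, and r between -0.21 and 0.70 without the 2 farthest libraries.

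The rest of the loop gives the setting for these members. Of 13 further core genes, 8 were tested in CA1 and 9 in WBC, and none passed in limma. In CA1 5 lay higher and 3 lower (median 0.16), with 3 higher and 1 lower at an unadjusted p under 0.05, against 2.54% and 2.6% of all rows. Dbp averaged 97.9 ± 8.22 FPKM in CA1 TBI and 66.8 ± 11.2 in CA1 sham libraries (SD, n = 4 each; log2 0.56, limma adjusted p = 0.891), the REV-ERB receptor Nr1d2 19.2 ± 1.41 in TBI and 16.6 ± 0.662 in sham (0.21), and Nfil3, a repressor of the same sites as Dbp, 3.79 ± 0.284 in TBI and 4.87 ± 0.599 in sham (-0.32). In WBC 8 lay higher and 1 lower (median 0.25), with 3 higher and 1 lower at an unadjusted p under 0.05, against 7.82% and 12.5% of all rows. There Dbp averaged 11.2 ± 0.719 FPKM in TBI and 8.80 ± 0.941 in sham libraries (0.33), its relative Tef 3.89 ± 0.297 in TBI and 2.95 ± 0.364 in sham (0.35), and Nfil3 8.50 ± 0.882 in TBI and 11.1 ± 2.02 in sham (-0.35; limma adjusted p = 0.143 to 0.200 for the 3). Arntl2, the paralog of Arntl, was listed at 0 in every WBC library.

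Of the further casein kinase and Gsk3 genes listed for the clock, all 10 were tested in each tissue and none passed in limma. In CA1 3 lay higher and 7 lower (median -0.03, against -0.01 for all rows, of which 46.7% lay above 0), and in WBC likewise 3 and 7 (median -0.11, with 49.6% of all rows above 0). In WBC 3 of 10 were lower at an unadjusted p under 0.05, as 12.5% of all rows were: Csnk1d, the closest relative of Csnk1e, at 38.9 ± 2.43 FPKM in TBI and 46.2 ± 2.51 in sham libraries (SD, n = 4 each; -0.25), Gsk3b at 23.9 ± 7.06 in TBI and 36.4 ± 5.38 in sham (-0.64), and the casein kinase subunit Csnk2b at 98.5 ± 8.22 in TBI and 116 ± 4.38 in sham (-0.24). In CA1 the smallest p of the list were those of Csnk1a1 (-0.18), Csnk2a1 (-0.18) and Gsk3b (-0.24), none under 0.05. Genes that turn over cryptochrome and period proteins were lower in 9 of 11 tested in WBC (median -0.13), 5 of them at an unadjusted p under 0.05, as 12.5% of all rows were. After quantile normalization 1521 WBC rows were higher and 1172 lower at such a p, against 1049 and 1678 as deposited, so counts of lower genes in WBC depend on the scaling. Cul1, a scaffold of the ubiquitin ligases that mark cryptochromes, averaged 32.5 ± 2.41 FPKM in WBC TBI and 39.5 ± 1.65 in WBC sham libraries (-0.28), Btrc, which marks period proteins, 11.4 ± 4.72 in TBI and 21.9 ± 2.37 in sham (-1.0), and Ddb1 43.7 ± 7.43 in TBI and 64.8 ± 13.4 in sham (-0.56; limma adjusted p = 0.137 to 0.146 for the 3). In CA1 10 of 13 were lower (median -0.05), where 46.7% of all rows lay above 0. Prkaa1 (-0.22) and Btrc (-0.24) were lower at an unadjusted p under 0.05, as 2.6% of all CA1 rows were, and Usp2 lay at 0.16. The 380 rows behind that share became 1172 without sham 1. The erythroid and platelet sums were lower in the same WBC TBI libraries, and their part in these differences was not tested.

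Cofactors of the clock were higher in 4 and lower in 7 of 11 tested in CA1 (median -0.08), with Wdr5 at 0.10, Ncoa2 at -0.16 and Nampt at -0.10, none at an unadjusted p under 0.05. In WBC 6 were higher and 5 lower (median 0.09), with the coactivator Ncoa1 at 0.21 (12.0 ± 0.281 FPKM in TBI and 10.4 ± 0.516 in sham libraries, SD, n = 4 each), Ncoa2 at -0.25 and Tbl1xr1 at -0.20. Relatives of Arntl and Clock in the bHLH-PAS family, which share their DNA-binding and dimer domains, were higher in 5 and lower in 2 of 7 tested in CA1, with Epas1 at -0.11, Npas4 at 0.38 and Arnt2 at 0.11, and split 2 and 2 in WBC. None of these genes passed in limma.

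For 3 members the genes nearest in pattern were found, as the root mean square distance between centred log2 values over the 8 libraries of a tissue. In CA1, among 10253 genes, Ndst3 (0.0312), Homer1 (0.0681) and Sema6d (0.0707) lay nearest to Arntl, where the median gene lay at 0.196. Nearest to Cry2 were RGD1565310 (0.0190, with the median gene at 0.133), Zfp142 and RGD1562218, and to Bhlhe40 Ap4m1 (0.0568, with the median gene at 0.189), Fam198b and Cnbd2. In WBC, among 8644 genes, Pitpnm1 (0.0569), RGD1563986 (0.0571) and Slc4a7 (0.0596) lay nearest to Arntl, with the median gene at 0.250. Cry2 had no gene nearer than Rab26 (0.169, with the median gene at 0.440), and Bhlhe40 none nearer than Gfod1 (0.112, with the median gene at 0.363). None of these genes belongs to the clock lists above.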

How the data were processed

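RNA-seq of 16 libraries, 4 in each of 4 groups, was read from a table per tissue. The authors deposited FPKM values per gene row for each library, and per the submitters' processing notes TopHat, Bowtie, Cufflinks and Cuffdiff and the build rn5 were used. Counts of fragments are not used here, so the depth is unknown, and no interval or limit that needs it is given. Each tissue was fitted alone with limma 3.58.1 (R 4.3.3; eBayes with a trend, 2-sided) on log2(FPKM + 0.5), over rows with a mean of at least 1 FPKM over its 8 libraries and an OK status in each, with Benjamini-Hochberg adjustment over all rows tested and a threshold of 0.05. Differences are on that scale, which understates those of low genes. The tissue difference is an interaction term over 16 libraries. Ratios and relations were tested by exact permutation (scipy 1.17.1). The fits were tested on simulated data. Named were all members, the 3 genes of smallest p in each clock list with at least 5 genes tested, and the 3 genes nearest to Arntl, Cry2 and Bhlhe40 in each tissue, some of which are not reported here. Members, lists and tests were chosen with earlier results of these data known. Alternatives covered the pseudocount, filters, scaling, weights, block, thresholds and left-out libraries. Upstream sequences came from RefSeq (GRCr8), and no protein sequence is used here.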

Additional observations from a re-analysis of the deposited data

Results flagged for a closer look

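Cry1 in CA1 TBI 4 stood at 5.01 FPKM, apart from the other CA1 TBI libraries, which lay between 4.17 and 4.24 FPKM. Its log2 ratio of Cry1 to Cry2 was likewise apart, at -2.39, with the other CA1 TBI libraries between -2.69 and -2.66. Both are the same library and share the Cry1 value. Of 48 groups of 4 libraries looked at, 2 held such a library, and chance gives about 1 in 20.

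Arntl and Clock are listed because every TBI library lay on one side of the sham mean in CA1 and on the other side in WBC. How many of all symbols met this rule was not counted, so it is not known whether it is unusual. Clock passed the WBC filter only through its TBI libraries. The WBC difference minus the CA1 difference was 0.47 for Arntl (limma adjusted p = 0.0951) and 0.47 for Clock (limma adjusted p = 0.224), so neither passed the test of the difference between tissues. These terms come from the same values as the rule and are no separate support for it.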

How the results depend on the processing

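No member passed the test in either tissue under any alternative. Between the tissues 1 passed at an adjusted p of 0.1 (Arntl). With rows summed, Npas2 averaged 14.4 FPKM in CA1 TBI and 12.8 in CA1 sham libraries. Leaving out 1 library at a time gave ratio differences of -0.25 to 0.0093 (Clock to Npas2), -0.15 to 0.23 (Rora to Rorb), -0.16 to 0.12 (Arntl to Clock) and 0.23 to 0.36 (Cry1 to Cry2) in CA1, and of -0.14 to 0.39 (Cry1 to Cry2) and -0.12 to 0.028 (Arntl to Clock) in WBC. It gave log2 differences of -0.20 to 0.036 (Npas2), -0.049 to 0.29 (Rora) and -0.050 to 0.18 (Rorb) in CA1, of -0.076 to 0.076 (Cry1), -0.34 to 0.10 (Cry2), -0.17 to 0.10 (Rorb) and -0.047 to 0.25 (Bhlhe40) in WBC, and between the tissues of -0.26 to 0.18 (Cry2) and -0.24 to 0.054 (Rorb). Sample weights turned Rorb in CA1 (-0.0012), Cry1 in WBC (-0.044), and Cry2 (0.10) and Rorb (0.030) between the tissues. The other Npas2 row, chosen after seeing the data, gave 0.84. As deviations from the group means, r of Arntl turned with Clock (-0.17), Cry2 (-0.15) and Per2 (0.13) in CA1. In WBC such deviations turned it with Per2 (-0.76), Nr1d1 (-0.48) and Dbp (-0.19). Without the 2 farthest libraries r of Arntl turned with Nr1d1 in CA1 (-0.19). The cause was not tested. Quantile normalization gave 1521 WBC rows higher and 1172 lower at an unadjusted p under 0.05, against 1049 and 1678 as deposited.

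For CA1, deviations of TBI and sham libraries correlated with r from 0.023 to 0.24 at equal numbers, and from -0.16 to 0.112 at unequal numbers. For WBC, equal numbers gave r from -0.00821 to 0.147, and unequal numbers from -0.131 to 0.0995. The highest r of each tissue belonged to an equal number (TBI 4 with sham 4 for CA1, TBI 1 with sham 1 for WBC). The ranges overlapped, so these values do not settle whether equal numbers mark pairs. With the replicate block 0 members passed. An unadjusted p under 0.05 was then found for 2 of 9 members in CA1, 1 of 7 in WBC and 1 of 7 between the tissues. Of all rows 869 of 14637 in CA1, 2634 of 13413 in WBC and 1660 of 7639 between the tissues had such a p. Under the block 214 symbols passed between the tissues, against 32 without it. Symbols passing between the tissues numbered 286 under sample weights, 20 with a minimum mean of 5 FPKM, 13 with no filter, 332 at an adjusted p of 0.1, and 6 (without CA1 TBI 4) to 225 (without WBC TBI 3) with 1 library left out. The depth behind low values such as Clock in WBC is unknown.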
